A study of Mus musculus with 6 samples.

Results

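Gene expression in the aorta-gonad-mesonephros (AGM) region was compared between mouse embryos with no intact allele of Tph2 (tph2-/-, 2 libraries) and embryos with 1 intact allele (tph2+/-, 2 libraries). All embryos were C57BL/6 at E11.5, and none had received a treatment named in the labels. A further 2 libraries came from tph2+/+ embryos. Those wild-type values are given beside the others as a point of orientation. The genes compared were the rows of the authors' RPKM table (reads scaled to gene length and to the library's mapped reads) that carried a gene symbol and averaged at least 1 RPKM over the 6 libraries, which left 12869 of 23446 symbol rows. Littermates are mentioned in the labels, but not which libraries shared a litter, and how the Tph2 allele was made and whether embryos were pooled are not given in the sources used here. P-values therefore measure only the spread between these libraries, which may be technical.

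Tph2 encodes a tryptophan hydroxylase, the enzyme that starts serotonin synthesis in neurons. The AGM surrounds the dorsal aorta of the midgestation embryo. Blood stem cells emerge there from arterial endothelium, beside the mesonephros, the early gonad and the sympathetic ganglia. Dissected AGM borders on somites, neural tube, limb buds, gut and liver, whose genes are therefore described below as groups of their own. Hox genes lie in 4 clusters and are switched on in sequence along the trunk, so that the genes at the posterior end of each cluster mark the tail end of the body axis, the distal limb and the genital tubercle.

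AGM genes were present in all 4 libraries. Cdh5, the adhesion protein of endothelial junctions, measured 26.2 and 26.8 RPKM in tph2-/- and 25.3 and 26.1 RPKM in tph2+/-. Each of the 29 listed pan-endothelial genes passed the filter on low values, as did 21 of 27 mesonephric and 22 of 30 gonadal genes. The filter was also passed by 41 of 46 limb bud genes, 44 of 76 neural genes and 29 of 36 liver genes. Estimated from the steps between low RPKM values, the libraries held 38450000 and 38950000 reads in tph2-/- and 40100000 and 40550000 reads in tph2+/-, so that 1 RPKM in a gene model of 2 kb stands for 76.9 to 81.1 reads.

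The tph2+/- libraries differed from each other more than the tph2-/- libraries did. The correlation across tested genes was 0.996 between the tph2-/- libraries and 0.993 between the tph2+/- libraries. Between a tph2-/- and a tph2+/- library it was 0.990 to 0.992, so the tph2+/- libraries were hardly closer to each other. Xist, the RNA that silences one X chromosome in females, measured 0.059 and 0.114 RPKM in tph2-/-, against 101 RPKM in tph2+/- replicate 1 and 0.0916 RPKM in replicate 2. Ddx3y, a Y-linked RNA helicase gene, measured 9.82 and 8.14 RPKM in tph2-/-, against 0.0214 and 8.69 RPKM in tph2+/-. The first tph2+/- library thus had a female pattern and the other three a male one, while both tph2+/+ libraries had a female pattern. The second tph2+/- library stood apart in heart genes: Myl7, the atrial myosin light chain, measured 3.63 and 2.89 RPKM in tph2-/- and 3.44 and 37.3 RPKM in tph2+/-. Liver genes differed as well, with Alb (serum albumin) at 77.4 and 71.6 RPKM in tph2-/- and 41.3 and 83.2 RPKM in tph2+/-. Counts below are therefore also given without each of these libraries where that moves them by more than 1.5 times.

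Among genes that averaged at least 1 RPKM in both genotypes, 18 of 37 in the neural progenitor and neuron lists were higher in tph2-/- than in tph2+/- AGM. Of 40 limb bud genes at that level 10 were lower, while posterior Hox genes changed in both directions, depending on the cluster. The intermediate filament gene Ina was 8.99 times its tph2+/- level and the neuronal tubulin gene Tubb3 3.33 times, as ratios of mean RPKM. Hoxd13 was at 0.0776 of its tph2+/- level and the limb and heart factor Tbx5 at 0.217. No listed gene of the blood lineages, of cell death or of serotonin handling passed the threshold. Of 12869 genes, 166 (1.29%) passed at an adjusted p under 0.05 in limma with Benjamini-Hochberg adjustment. There were 96 higher in tph2-/- (0.746%) and 70 lower (0.544%), and 1691 genes (13.1%) had an unadjusted p under 0.05. Over all tested genes the median log2 fold change on the log2(RPKM + 1) scale was -0.0013, with a median SE of 0.0735.

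The large differences were few. Among the genes that passed, 23 were higher and 11 lower by at least 1 on the log2(RPKM + 1) scale. In none of the 166 did the tph2-/- and tph2+/- libraries overlap. With 2 libraries per genotype the threshold itself favours such genes, so this is no separate support. The mean was under 1 RPKM in tph2+/- for 18 of the 96 higher genes and under 1 RPKM in tph2-/- for 5 of the 70 lower genes, so part of each list passed the filter through the other libraries. The count of calls fell to 57 without tph2-/- replicate 1 and to 74 without tph2-/- replicate 2, and reached 288 without tph2+/- replicate 1, the library with the female pattern. With the mean level of Y-linked genes added to the fit it was 267, of which 164 were lower.

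**Figure D1:**
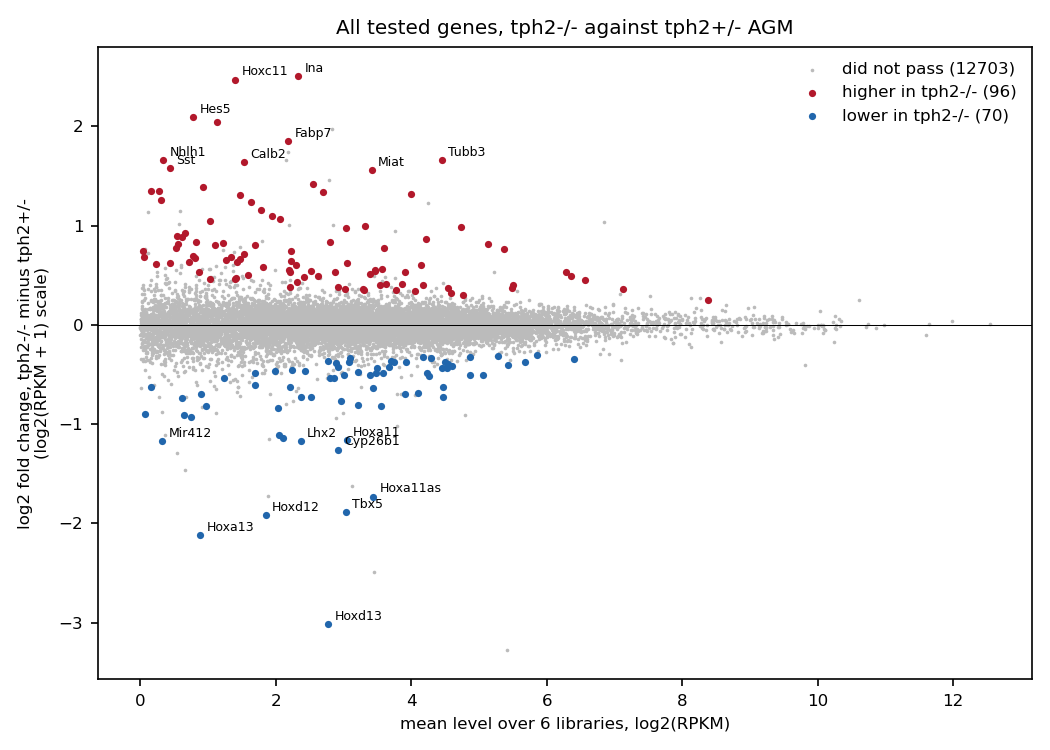
Each point is 1 of 12869 tested genes, with the mean level over 6 libraries in log2(RPKM) on the horizontal axis and the log2 fold change of tph2-/- over tph2+/- on the vertical axis. The 96 genes higher in tph2-/- are led by Ina and Hoxc11, and the 70 lower ones by Hoxd13 and Hoxa13.

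The promoters of 5 genes with large differences are shown because 3 of them are Hox genes that were lower in tph2-/- and 2 are neural genes that were higher. Each is the stretch of 250 bases before the start of the gene in RefSeq on GRCm38.p6, read 5′ to 3′ on the strand of the gene. Capitals mark matches, on either strand, to the TATA box (TATAAA), the CCAAT box (CCAAT), the GC box (GGGCGG), the binding motif of the Notch effector RBPJ (GTGGGAA) and the E-box of many neural bHLH factors (CAGCTG). Hoxd13 lies at chr2:74667975-74668224 on the plus strand, Hoxa13 at chr6:52260881-52261130 on the minus strand, Hoxd12 at chr2:74674763-74675012 on the plus strand, Ina at chr19:47014431-47014680 on the plus strand and Hes5 at chr4:154960673-154960922 on the plus strand.
Hoxd13: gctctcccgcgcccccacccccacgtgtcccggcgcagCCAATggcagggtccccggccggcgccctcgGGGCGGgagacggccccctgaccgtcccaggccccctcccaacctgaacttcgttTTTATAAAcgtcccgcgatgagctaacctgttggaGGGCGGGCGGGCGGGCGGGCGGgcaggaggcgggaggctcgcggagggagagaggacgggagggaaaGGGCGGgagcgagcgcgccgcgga
Hoxa13: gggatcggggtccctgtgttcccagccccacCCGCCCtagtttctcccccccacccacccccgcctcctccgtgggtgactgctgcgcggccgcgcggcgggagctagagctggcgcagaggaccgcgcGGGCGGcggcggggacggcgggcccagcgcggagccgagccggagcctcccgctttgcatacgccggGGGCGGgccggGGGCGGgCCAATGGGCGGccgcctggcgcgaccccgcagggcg
Hoxd12: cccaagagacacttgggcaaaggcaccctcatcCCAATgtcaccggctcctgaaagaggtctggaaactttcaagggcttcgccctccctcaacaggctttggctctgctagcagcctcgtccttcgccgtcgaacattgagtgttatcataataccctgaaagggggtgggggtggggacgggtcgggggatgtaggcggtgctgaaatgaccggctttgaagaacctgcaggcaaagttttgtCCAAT
Ina: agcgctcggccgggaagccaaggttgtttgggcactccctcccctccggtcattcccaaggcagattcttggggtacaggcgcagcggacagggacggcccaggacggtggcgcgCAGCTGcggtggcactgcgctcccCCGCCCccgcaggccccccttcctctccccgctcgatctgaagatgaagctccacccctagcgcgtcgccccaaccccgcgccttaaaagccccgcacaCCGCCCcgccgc
Hes5: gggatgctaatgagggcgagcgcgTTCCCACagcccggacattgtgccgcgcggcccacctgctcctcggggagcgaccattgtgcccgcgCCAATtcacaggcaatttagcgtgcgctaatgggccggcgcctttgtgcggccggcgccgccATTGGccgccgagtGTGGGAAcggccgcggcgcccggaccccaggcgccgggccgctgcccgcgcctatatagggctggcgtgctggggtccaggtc

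Hes5 held GTGGGAA at 226 bases before its start on the minus strand and at 83 bases before it on the plus strand. Ina held 1 match to CAGCTG, which reads the same on both strands. Hoxd13 held 7 GC boxes, 5 of them run into one another, and 2 overlapping matches to TATAAA on opposite strands. GTGGGAA occurred in 4.62% of 65 promoters of higher genes, 6.52% of 46 promoters of lower genes and 5.4% of 9875 promoters of tested genes, so its share in the genes that passed was near that of all tested genes. CAGCTG occurred in 13.8%, 15.2% and 11.53% of the same promoters, TATAAA in 12.3%, 15.2% and 6.03%, CCAAT in 41.5%, 32.6% and 36.7%, and GGGCGG in 43.1%, 63.0% and 61.1%.

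All genes of the neural progenitor and neuron lists that passed the threshold were higher in tph2-/- AGM. Neural genes in the counts here are those of these lists, genes of progenitors as well as cytoskeletal genes of young neurons. Among the genes at 1 RPKM or more in both genotypes, 4 of 16 progenitor genes and 14 of 21 neuron genes were higher and 0 were lower, which makes 18 of 37 (48.6%, against 0.615% of all genes at that level). Their median log2 fold change was 0.39. Another 3 progenitor and 4 neuron genes averaged under 1 RPKM in tph2+/- and passed the filter through other libraries, and all were higher. With them, as a description, 25 of 44 were higher (56.8%, against 0.746% of all tested genes), 7 of 19 in the progenitor and 18 of 25 in the neuron list. In every one of the 15 other settings tried the median of the neuron list was positive, between 0.60 and 0.83, but without tph2-/- replicate 1 only 9 neuron genes and 3 progenitor genes passed, and without replicate 2 only 12 and 3.

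Ina (chromosome 19, 47014698 to 47025327, plus strand, GRCm38), which encodes the neuronal intermediate filament alpha-internexin, measured 12.8 and 12.1 RPKM in tph2-/-, 1.06 and 1.71 RPKM in tph2+/- and 1.06 and 1.34 RPKM in tph2+/+. The genotypes compared lay far apart, and tph2+/- was close to wild type. Its log2 fold change was 2.51 ± 0.129 (SE), with a limma adjusted p of 2.56e-05. An exon of Ina overlaps Nt5c2 on the other strand, and because the kit keeps no strand information, reads in the overlap cannot be assigned.

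Hes5 (chromosome 4, 154960923 to 154962371, plus strand), a repressor that Notch switches on in neural progenitors, measured 4.24 and 4.85 RPKM in tph2-/- and 0.214 and 0.385 RPKM in tph2+/-. It averaged at least 1 RPKM over the 6 libraries only through tph2-/-, so its difference of 2.09 is given as a description. Fabp7, a fatty acid binding protein of radial glia, measured 10.2 and 9.97 RPKM in tph2-/- and 1.53 and 2.70 RPKM in tph2+/-. Sox2, which keeps neural progenitors undifferentiated, measured 6.53 and 6.67 RPKM in tph2-/-, 2.29 and 2.51 RPKM in tph2+/- and 1.37 and 1.31 RPKM in tph2+/+ (1.16, adjusted p = 0.000172 in limma). Both genes had a higher value in each tph2-/- library than in any tph2+/- library. Dll3, a Notch ligand gene, averaged 0.934 RPKM in tph2+/- and passed the filter only through tph2-/-, so its difference of 0.90 is a description. Pax2, a transcription factor gene with a mean of 0.505 RPKM in tph2+/-, was higher by 0.75 and is also in the mesonephros list. The Notch ligand gene Dll1 was higher by 0.39 and the transcription factor gene Zic1 by 1.42. Not every progenitor gene did so: Notch1 measured 10.0 and 10.2 RPKM in tph2-/- against 9.19 and 9.95 RPKM in tph2+/-, and Nes, the progenitor filament nestin, 61.6 and 67.1 against 53.9 and 61.1 RPKM.

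Tubb3 (chromosome 8, 123411424 to 123422015, plus strand), the beta tubulin of neurons, measured 39.0 and 44.5 RPKM in tph2-/-, 11.1 and 14.1 RPKM in tph2+/- and 11.4 and 11.0 RPKM in tph2+/+. Its log2 fold change was 1.66 ± 0.106, with a limma adjusted p of 0.000176. Nhlh1, a bHLH factor of newborn neurons, measured 2.95 and 3.24 RPKM in tph2-/- and 0.199 and 0.404 RPKM in tph2+/-, and it too passed the filter through tph2-/-. The genotypes did not overlap for either gene. Stmn2, a microtubule regulator of growing axons, measured 11.7 and 12.2 RPKM in tph2-/- against 3.55 and 4.76 RPKM in tph2+/- (1.34). Elavl3, a neuronal RNA-binding protein gene, measured 3.83 and 4.12 RPKM in tph2-/- against 0.774 and 1.02 RPKM in tph2+/-. It passed the filter only through tph2-/-, so its difference of 1.39 is given as a description. The neurofilament genes Nefl and Nefm were more abundant and rose by 0.99 and 0.82, and the axon genes Gap43 and Map2 by 0.32 and 0.61. Ncam1 and Kif1a did not pass, with 0.13 and 0.01.

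Several neuronal gene families, counted here after their values were seen, held more than 1 gene that rose, where 0.746% of all tested genes did. All 3 tested neurofilament and internexin genes were higher, as were 3 of 4 ELAV-like genes, 3 of 5 collapsin response mediator genes and 2 of 4 stathmin genes. Only 2 of 8 beta tubulin genes were, Tubb3 and Tubb2b. Ina, Nefl, Nefm, Elavl3, Elavl4, Stmn2, Stmn3, Crmp1 and Tubb3 were already counted in the neuron list. Elavl3, counted among the ELAV-like genes, passed the filter only through tph2-/-. Among the 15 largest rises were also Sst and Calb2, the neuropeptide somatostatin and the calcium-binding protein calretinin, with 1.58 and 1.64, and Miat, a long non-coding RNA, with 1.56. Sst averaged 0.431 RPKM in tph2+/- and passed the filter only through tph2-/-, so its rise is given as a description. The receptor genes Chrna3 and Chrna4, subunits of nicotinic acetylcholine receptors, rose by 0.77 and 0.63, which makes 2 of 6 tested genes of that family.

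Below the filter, several transcription factor genes of the neural tube were present in tph2-/- and near 0 in tph2+/-. They could have reached the level needed for a test only through the tph2-/- libraries, so their values are given with no test and were picked after they were seen. Neurog2, which commits progenitors to a neuronal fate, measured 2.01 and 2.13 RPKM in tph2-/- and 0.0224 and 0.0110 RPKM in tph2+/-. Its relative Neurog1 measured 2.43 and 2.57 RPKM in tph2-/- and 0.0446 and 0.353 RPKM in tph2+/-. Both were also under 0.1 RPKM in each tph2+/+ library. Olig3, a factor of the dorsal neural tube, measured 1.12 and 1.18 RPKM in tph2-/- and 0.0240 and 0.0237 RPKM in tph2+/-. Sox3, a close relative of Sox2, measured 1.45 and 1.99 RPKM in tph2-/- and 0.0960 and 0.107 RPKM in tph2+/-. In the opposite direction, Nkx2-1, a factor of the lung and thyroid buds, measured 0.351 and 0.267 RPKM in tph2-/- and 1.15 and 1.48 RPKM in tph2+/-. Neurog2, Neurog1 and Olig3 belong to the list of proneural factors, of which 15 of 21 lay under the filter. Its 6 tested genes did not rise together: 1 was higher (Insm1) and 1 lower (Lmx1b), which makes 33.3%, against 1.29% of all tested genes. At an unadjusted p under 0.05 in limma, 2 were higher and 3 lower (83.3%, against 13.1%), and the median was -0.12.

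Summed over the neuron list, the level was 332.5 and 348.1 RPKM in tph2-/-, 177 and 193 RPKM in tph2+/- and 186.8 and 188.3 RPKM in tph2+/+. The tph2+/+ mean was nearer to tph2+/- than to tph2-/- for 23 of the 25 neural genes that passed. Among all 96 higher genes this was so for 65. These bulk values cannot tell more neural cells in a sample apart from more RNA per cell. The part that neighbouring neural tissue in a dissection may have in them was not tested. Of 27 tested sympathoadrenal and neural crest genes, which mark the sympathetic ganglia of the AGM, 2 were higher (Insm1 and Hand1), 1 was lower (Hand2), and the median was 0.05. That makes 11.1% past the threshold, against 1.29% of all tested genes. At an unadjusted p under 0.05 in limma there were 10 (37.0%, against 13.1%), 8 higher and 2 lower.

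**Figure D2:**
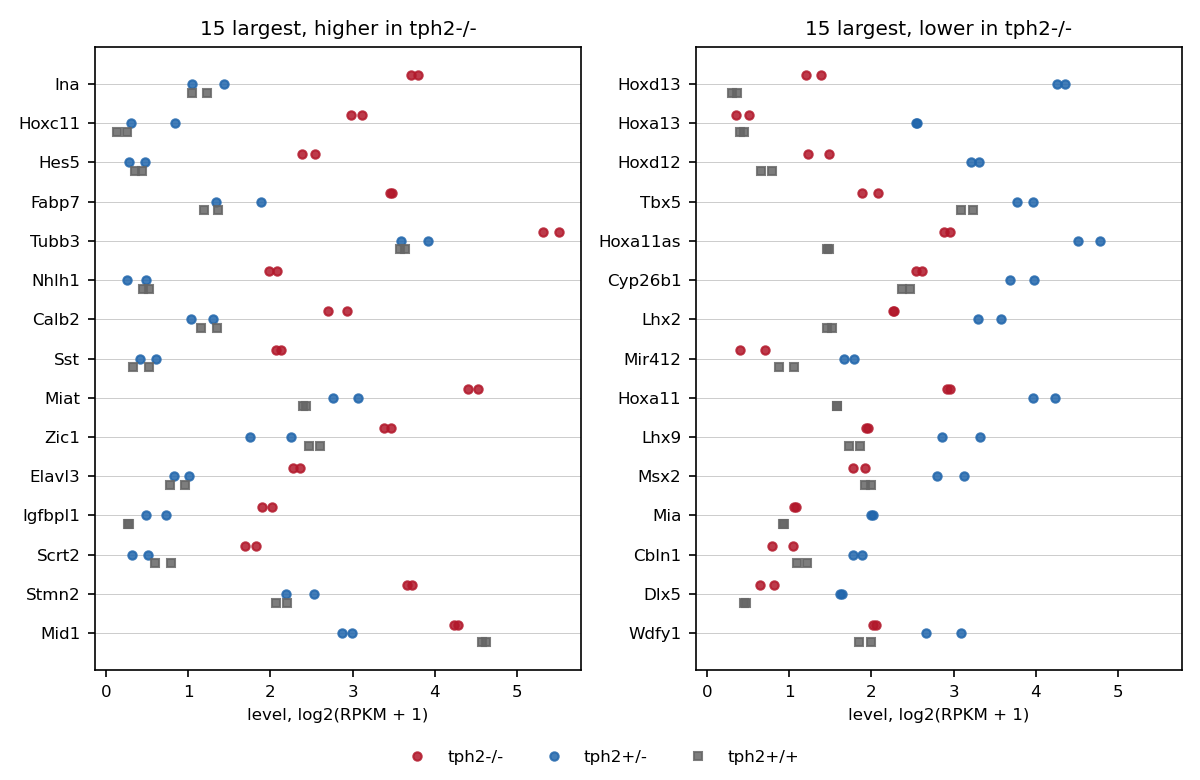
Levels in log2(RPKM + 1) of the 15 genes with the largest rise (left) and the 15 with the largest fall (right) in tph2-/-, with 1 point per library. In each row the tph2-/- points lie apart from the tph2+/- points, which the rule for choosing these genes required. For Hoxd13 the tph2+/+ points lie below both.

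The posterior Hox genes that changed fell in the HoxA and HoxD clusters of tph2-/- AGM and rose in the HoxB and HoxC clusters. Of 13 tested posterior Hox genes (paralogues 9 to 13), 4 were lower (against 0.544% of all tested genes) and 3 were higher (against 0.746%). Hoxa13 averaged at least 1 RPKM only through tph2+/- and Hoxc11 only through tph2-/-. Without them 3 of 11 were lower and 2 higher. The median of the list, -0.05, therefore says little about its members. Of 21 tested anterior and middle Hox genes, 2 were higher and 0 lower, with a median of 0.005.

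Hoxd13 (chromosome 2, 74668310 to 74671599, plus strand), the last gene of its cluster, which patterns digits and genitalia, measured 1.61 and 1.30 RPKM in tph2-/-, 18.1 and 19.5 RPKM in tph2+/- and 0.289 and 0.233 RPKM in tph2+/+. The tph2+/- libraries stood above both other genotypes. The log2 fold change was -3.01 ± 0.0929 (limma adjusted p = 1.6e-06), on the log2(RPKM + 1) scale the largest of any gene that passed. Hoxa13 (chromosome 6, 52257694 to 52260880, minus strand), its counterpart in the HoxA cluster, measured 0.275 and 0.427 RPKM in tph2-/-, 4.87 and 4.81 RPKM in tph2+/- and 0.364 and 0.323 RPKM in tph2+/+. Here tph2-/- and tph2+/+ lay side by side. Its log2 fold change of -2.11 is given as a description, since the filter was passed through tph2+/- alone.

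Hoxd12 (chromosome 2, 74675013 to 74677705, plus strand) measured 1.79 and 1.34 RPKM in tph2-/- and 8.30 and 8.94 RPKM in tph2+/-, a difference of -1.91 ± 0.108. Hoxd11, its neighbour, measured 5.73 and 6.30 RPKM in tph2-/- and 8.87 and 7.75 RPKM in tph2+/- and did not pass (-0.41, limma adjusted p = 0.0611). Hoxd10 measured 8.10 and 9.01 RPKM in tph2-/- and 8.77 and 7.60 RPKM in tph2+/-, which overlap. The difference within the HoxD cluster was thus large at its posterior end and small in the middle. Hoxa11, a factor of the middle limb segment, measured 6.54 and 6.75 RPKM in tph2-/- and 17.8 and 14.6 RPKM in tph2+/-. Its antisense transcript Hoxa11as measured 6.36 and 6.78 RPKM in tph2-/- and 26.5 and 21.9 RPKM in tph2+/-. Both fell, by 1.16 and 1.73 on the log2 scale, but without strand their reads cannot be told apart. Hoxa10 overlapped between the genotypes, with 18.9 and 18.2 RPKM in tph2-/- and 22.6 and 16.3 RPKM in tph2+/-.

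Hoxc11 (chromosome 15, 102954427 to 102957708, plus strand), a gene of the hindlimb level and the tail, went the other way. It measured 7.64 and 6.88 RPKM in tph2-/-, 0.785 and 0.241 RPKM in tph2+/- and 0.190 and 0.0975 RPKM in tph2+/+, so that only tph2-/- showed a clear level. Its log2 fold change of 2.47 is likewise a description. Hoxc12, under the filter, measured 2.45 and 2.27 RPKM in tph2-/- and 0.294 and 0.552 RPKM in tph2+/-, and is listed at 0 in tph2+/+. Hoxc10 measured 27.9 and 26.2 RPKM in tph2-/- and 16.1 and 7.42 RPKM in tph2+/-. The tph2+/- libraries of Hoxc10 lay far apart, and the gene did not pass (1.23 ± 0.385, limma adjusted p = 0.343). Hoxb9 measured 12.1 and 13.0 RPKM in tph2-/-, 6.37 and 5.31 RPKM in tph2+/- and 11.27 and 11.46 RPKM in tph2+/+ and rose by 0.99 (adjusted p = 0.000358 in limma).

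Smaller rises were those of Hoxc9 (0.57), Hoxd3 (0.56) and Hoxd4 (0.53), with Hoxd3 and Hoxd4 sharing exons in the annotation. For these and Hoxb9 the tph2+/+ mean was nearer to tph2-/- than to tph2+/-. Among the genes that bind DNA together with Hox proteins, Meis3 and Meis2 rose by 0.40 and 0.30, the second with its call lost in 8 of 15 other settings. That makes 2 of 11 tested TALE homeobox genes past the threshold (18.2%, against 1.29% of all tested genes). At an unadjusted p under 0.05 in limma 5 were higher and 0 lower (45.5%, against 13.1%), and the median was 0.19. The 4 posterior Hox genes that fell did so also without either tph2-/- library and without either tph2+/- library. Without the female-pattern tph2+/- library the log2 fold changes were -3.06 for Hoxd13, -2.11 for Hoxa13 and 2.73 for Hoxc11.

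**Figure D3:**
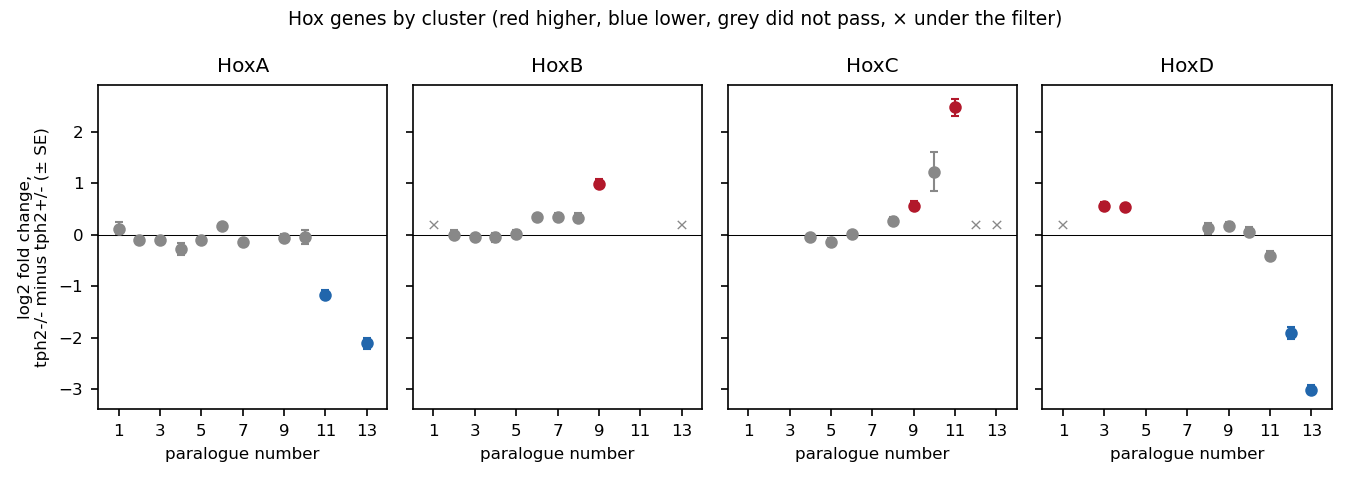
Log2 fold change of tph2-/- over tph2+/- (points, bars ± SE) for the tested Hox genes, by cluster and paralogue number. Blue points fall to -3.01 at the posterior end of HoxD and to -2.11 at that of HoxA, while red points rise to 2.47 in HoxC.

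All limb bud genes that passed the threshold were lower in tph2-/- AGM, and most of them encode homeobox or other transcription factors. Among the 40 limb bud genes at 1 RPKM or more in both genotypes, 10 were lower (25%, against 0.512% of all genes at that level) and 0 higher, with a median of -0.27. Of all 41 tested, 11 were lower (26.8%, against 0.544% of all tested genes) and 0 were higher. At an unadjusted p under 0.05 in limma 25 were lower and 0 higher (61.0%, against 13.1% of all tested genes in either direction). The median log2 fold change of the 41 was -0.28, beside -0.0013 over all tested genes. The 11 were Tbx5, Cyp26b1, Lhx2, Lhx9, Msx2, Dlx5, Wnt5a, Lmx1b, Prrx1, Hand2 and Tbx15. The count was 6 without tph2-/- replicate 1, 7 without tph2-/- replicate 2 and 17 without tph2+/- replicate 2, and the median lay between -0.33 and -0.21 over all settings.

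Tbx5 (chromosome 5, 119832668 to 119885219, plus strand), which starts forelimb outgrowth and is also a heart gene, measured 2.68 and 3.24 RPKM in tph2-/-, 12.7 and 14.7 RPKM in tph2+/- and 7.53 and 8.40 RPKM in tph2+/+. The tph2-/- libraries were the lowest of the 6. The log2 fold change was -1.89 ± 0.0956, with a limma adjusted p of 2.56e-05. The summed level of the cardiac gene list, which includes Tbx5, was 142.8 and 150.8 RPKM in tph2-/- and 150.7 and 296.4 RPKM in tph2+/-, and the part of heart tissue in the Tbx5 values was not tested. The hindlimb counterparts of Tbx5 did not pass: Tbx4 measured 7.00 and 8.14 RPKM in tph2-/- and 8.48 and 3.27 RPKM in tph2+/-, and Pitx1 measured 43.2 and 50.7 against 43.5 and 23.6 RPKM. Both overlapped between the genotypes, and their 95% intervals on the log2 scale ran from -0.77 to 1.62 and from -0.40 to 1.46. Without tph2+/- replicate 1 both passed as higher in tph2-/-, with 1.00 for Tbx4 (limma adjusted p = 0.00276) and 0.96 for Pitx1 (limma adjusted p = 0.00205).

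Cyp26b1, which breaks down retinoic acid in the distal limb, measured 4.80 and 5.14 RPKM in tph2-/-, 14.7 and 11.9 RPKM in tph2+/- and 4.18 and 4.52 RPKM in tph2+/+. Lhx2, a LIM homeobox gene of limb outgrowth, measured 3.85 and 3.78 RPKM in tph2-/-, 10.9 and 8.83 RPKM in tph2+/- and 1.74 and 1.87 RPKM in tph2+/+. For both the tph2+/- libraries were the highest of the 6. Their log2 fold changes were -1.26 and -1.17, and those of Lhx9 and Lmx1b, from the same LIM homeobox family, were -1.14 and -0.73, with the Lmx1b call lost in 8 of 15 other settings. Msx2, a homeobox target of BMP signalling, fell by 1.11. Dlx5, a homeobox gene of the apical ridge and the cranial skeleton, averaged 0.665 RPKM in tph2-/- and passed the filter only through tph2+/-. Its fall of 0.90 is given as a description. Msx1, the closest relative of Msx2, had 8.59 and 9.35 RPKM in tph2-/- and 25.1 and 14.6 RPKM in tph2+/- and did not pass (-1.02, adjusted p = 0.247 in limma), with a wide gap between the tph2+/- libraries.

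Wnt5a, the ligand that directs limb elongation, measured 17.0 and 16.8 RPKM in tph2-/-, 28.6 and 28.7 RPKM in tph2+/- and 20.3 and 21.0 RPKM in tph2+/+. Replicates lay within 1 RPKM of each other in each genotype. The log2 fold change was -0.73 ± 0.0526 (limma adjusted p = 0.000198). Hand2, a bHLH factor of the posterior limb and of sympathetic neurons, measured 24.6 and 27.2 RPKM in tph2-/- and 37.0 and 37.2 RPKM in tph2+/-, and Hand1 went the other way with 8.32 and 8.69 against 6.31 and 4.88 RPKM (0.54, a call lost in 8 of 15 other settings). Meox1 and Meox2, homeobox genes of the somite, were split in the same manner, with 0.37 and -0.48.

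Some genes of the FGF, BMP and Wnt pathways fell, of which Msx2 and Wnt5a were already counted among the limb bud genes. Of 18 tested FGF pathway genes 3 were lower (Fgf18, Spry4 and Etv5) and 0 higher, with a median of -0.15, where 0.544% of all tested genes were lower. In the BMP and TGF-beta list 3 of 31 were lower (Msx2, Bmp4 and Id1), with a median of -0.19, and in the Wnt list 2 of 34 (Wnt5a and Wnt11), with a median of -0.16. The 3 FGF pathway calls were all lost, leaving 0 in limma, when either tph2-/- library was left out, and with all libraries 7 FGF pathway genes had an unadjusted p under 0.05. Those 7 FGF pathway genes, all lower, were 38.9% of the 18 tested, against 13.1% of all tested genes in either direction. Bmp4, a ligand of the aortic floor as well as of limb and gut mesenchyme, measured 15.9 and 17.4 RPKM in tph2-/- and 23.3 and 22.4 RPKM in tph2+/-. Mesenchyme and matrix genes had a median of -0.20, and 2 of 34 were lower, the fibulin genes Fbln1 and Fbln2, whose calls were lost in 7 and 9 of 15 other settings.

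The summed level of the limb bud list was 555.4 and 596.8 RPKM in tph2-/-, 773.6 and 638.2 RPKM in tph2+/- and 621.2 and 651.3 RPKM in tph2+/+. The tph2+/+ mean was nearer to tph2-/- than to tph2+/- for 10 of the 11 genes, with Tbx5 the exception, and it lay below both in 8. Among all 70 lower genes it was nearer to tph2-/- for 45 and lay below both in 24. The part that limb bud tissue in a dissection may have in these values was not tested.

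**Figure D4:**
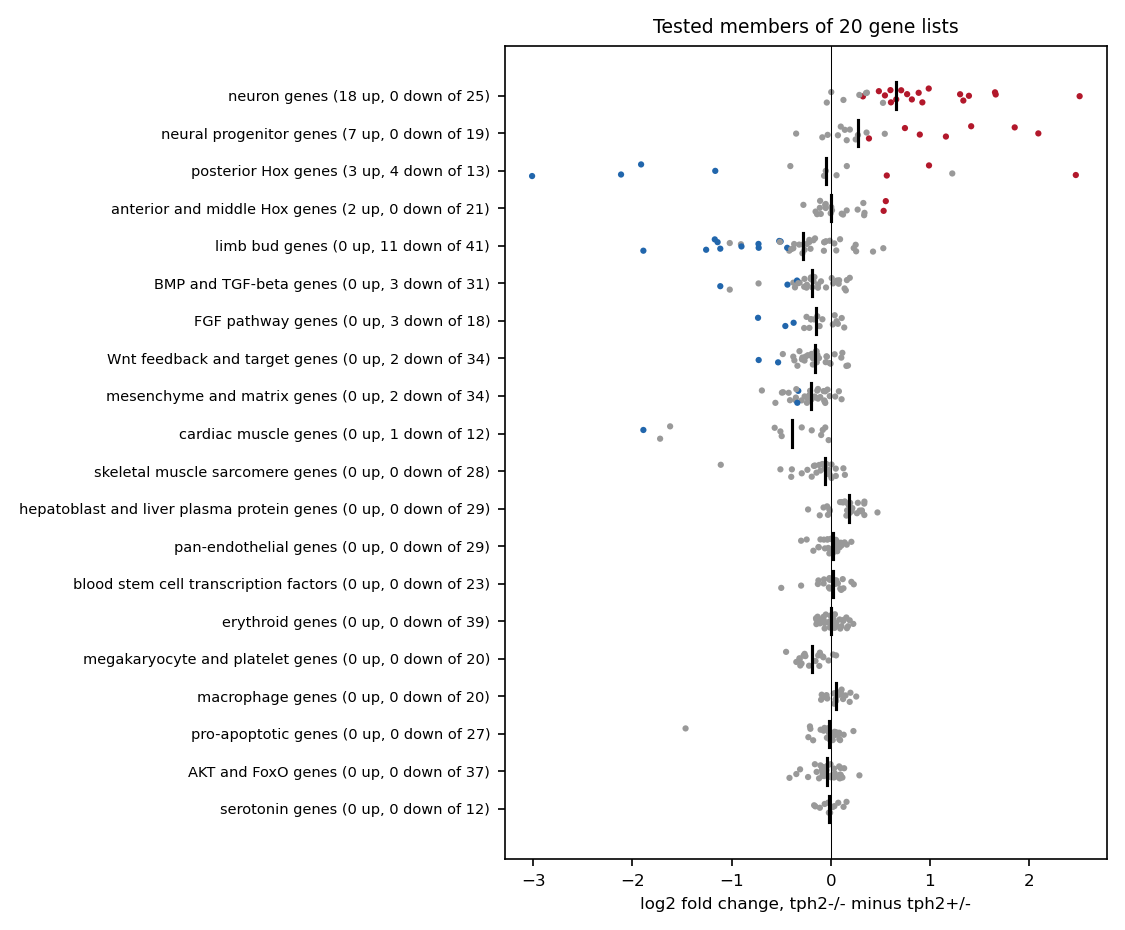
Log2 fold change of tph2-/- over tph2+/- for the tested members of 20 gene lists (points; red higher, blue lower, grey not past the threshold) with the list median as a black bar. Neuron genes centre on 0.66 and limb bud genes on -0.28, the megakaryocyte list on -0.19, and the other blood, endothelial, cell death and serotonin lists near 0.

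Of the listed genes, 2 of 60 in vessels (3.33%, against 1.29% of all tested genes) and none in blood, cell survival or serotonin passed the threshold between tph2-/- and tph2+/- AGM in limma. Of 124 tested genes in 6 blood lists, 0 passed in limma and 16 (12.9%) had an unadjusted p under 0.05, near the 13.1% of all tested genes. Runx1, the factor that blood stem cell emergence requires, measured 1.40 and 1.26 RPKM in tph2-/- and 1.25 and 1.86 RPKM in tph2+/-. Its 95% interval on the log2 scale ran from -0.41 to 0.16. Kit, the stem cell factor receptor, measured 7.67 and 7.28 RPKM in tph2-/- and 6.86 and 6.87 RPKM in tph2+/- (0.11, interval -0.04 to 0.25). Myb, a factor of definitive progenitors, measured 3.41 and 3.64 against 3.07 and 3.25 RPKM.

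Megakaryocyte and platelet genes did not pass. Among 20 tested genes limma called 0, while 9 (45.0%, against 13.1% of all tested genes) were lower at an unadjusted p under 0.05 and 0 higher, and the median was -0.19. Pf4, the platelet factor stored in granules, measured 19.7 and 18.3 RPKM in tph2-/-, 23.9 and 23.1 RPKM in tph2+/- and 8.95 and 8.91 RPKM in tph2+/+ (-0.29, limma adjusted p = 0.0568). Itgb3, the beta chain of the platelet fibrinogen receptor, measured 6.34 and 6.62 RPKM in tph2-/- and 7.94 and 8.58 RPKM in tph2+/-. In both genes the libraries ran in the order tph2+/+, tph2-/- and tph2+/- without overlap.

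Among 60 endothelial genes from 3 lists, Cxcl12, a chemokine of arterial wall and stroma, was higher (0.38) and Nrp2, a receptor of veins and lymphatics, was lower (-0.32, a call lost in 10 of 15 other settings). An unadjusted p under 0.05 was found for 16 of the 60 (26.7%, against 13.1% of all tested genes), of which 12 were among the 22 arterial and Notch genes, 6 higher and 6 lower. Cdh5 had a log2 fold change of 0.04 with an interval of -0.08 to 0.16, and Pecam1, another endothelial adhesion gene, 0.02 with -0.11 to 0.15. Of 21 tested mesonephros genes, Pax2 and Calb1 were higher and Wnt11 lower (14.3%, against 1.29% of all tested genes). At an unadjusted p under 0.05 in limma there were 13 (61.9%, against 13.1%), 6 higher and 7 lower. Of 22 tested gonad genes only Lhx9, also a limb bud gene, passed, as lower (4.55%), and 6 (27.3%) had an unadjusted p under 0.05. For the survival genes, which include BCL2 family members, AKT and FoxO genes and p53 targets, limma called 0 of 91, and 12 (13.2%) had an unadjusted p under 0.05. Bbc3 and Bcl2l11, which encode the death-promoting proteins PUMA and BIM, had 0.06 and 0.13. Foxo1, a factor that AKT holds out of the nucleus, had -0.04 with an interval of -0.24 to 0.15.

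Tph2 itself was barely detected, at 0.0393 and 0.0680 RPKM in tph2-/- and 0.0472 and 0.0280 RPKM in tph2+/-, so its RNA could not check the labels at this depth. Limma called 0 of 12 tested serotonin genes, and 0 had an unadjusted p under 0.05, against 1.29% and 13.1% of all tested genes. The other 17 of 29 listed serotonin genes, among them Slc6a4, lay under the filter and were not tested. Ddc, the enzyme after tryptophan hydroxylase, measured 4.71 and 4.61 RPKM in tph2-/- and 4.57 and 5.70 RPKM in tph2+/-, and Maoa, which breaks serotonin down, 4.89 and 4.36 against 3.88 and 4.18 RPKM (0.16, interval -0.03 to 0.34). Around Tph2 on chromosome 10, limma called 0 of 38 tested genes within 5 Mb, with 2 at an unadjusted p under 0.05, and 0 of 161 within 20 Mb, with 26 at that level. Over all tested genes the shares were 1.29% called and 13.1% at an unadjusted p under 0.05, so few calls were to be found among so few genes.

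Liver genes showed no call and a wide spread between the tph2+/- libraries. Limma called 0 of 29 tested liver genes, and 4 (13.8%, against 13.1% of all tested genes) had an unadjusted p under 0.05. The median of 0.18 turned to -0.05 without the first tph2+/- library and to 0.41 without the second. Without the second, Alb (0.84, limma adjusted p = 0.000845) and Afp, the alpha-fetoprotein gene (0.64, limma adjusted p = 0.00344), passed as higher in tph2-/-. The liver sum was 688.9 and 672.2 RPKM in tph2-/-, 482.9 and 704.3 RPKM in tph2+/- and 189 and 198.3 RPKM in tph2+/+. Both mutant genotypes thus lay above wild type, and tph2-/- lay between the tph2+/- libraries. In the gut lists Isl1 and Hand1 were higher and Bmp4 was lower, with 1 of 20 endoderm and 3 of 18 mesenchyme genes past the threshold, against 1.29% of all tested genes. Isl1 is in both gut lists and also in the neuron list, Hand1 in the sympathoadrenal list and Bmp4 in the BMP list. These calls were therefore already counted above. Barx1, a factor of stomach mesenchyme, measured 21.8 and 25.4 RPKM in tph2-/- and 24.8 and 27.3 RPKM in tph2+/-, against 0.336 and 0.590 RPKM in tph2+/+, and its log2 fold change between the mutant genotypes was -0.14 (interval -0.37 to 0.09). The sign of the list median depended on which tph2+/- library was left out for 24 of 54 lists. Without tph2+/- replicate 1 and replicate 2 the medians were -0.69 and 0.04 for cardiac, -0.28 and 0.13 for skeletal sarcomere, 0.15 and -0.19 for posterior Hox, -0.13 and 0.19 for erythroid and -0.18 and 0.17 for globin genes. Housekeeping lists were even: limma called 0 of 77 ribosomal protein genes and 0 of 50 respiratory chain genes, and 0 in either list had an unadjusted p under 0.05.

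**Figure D5:**
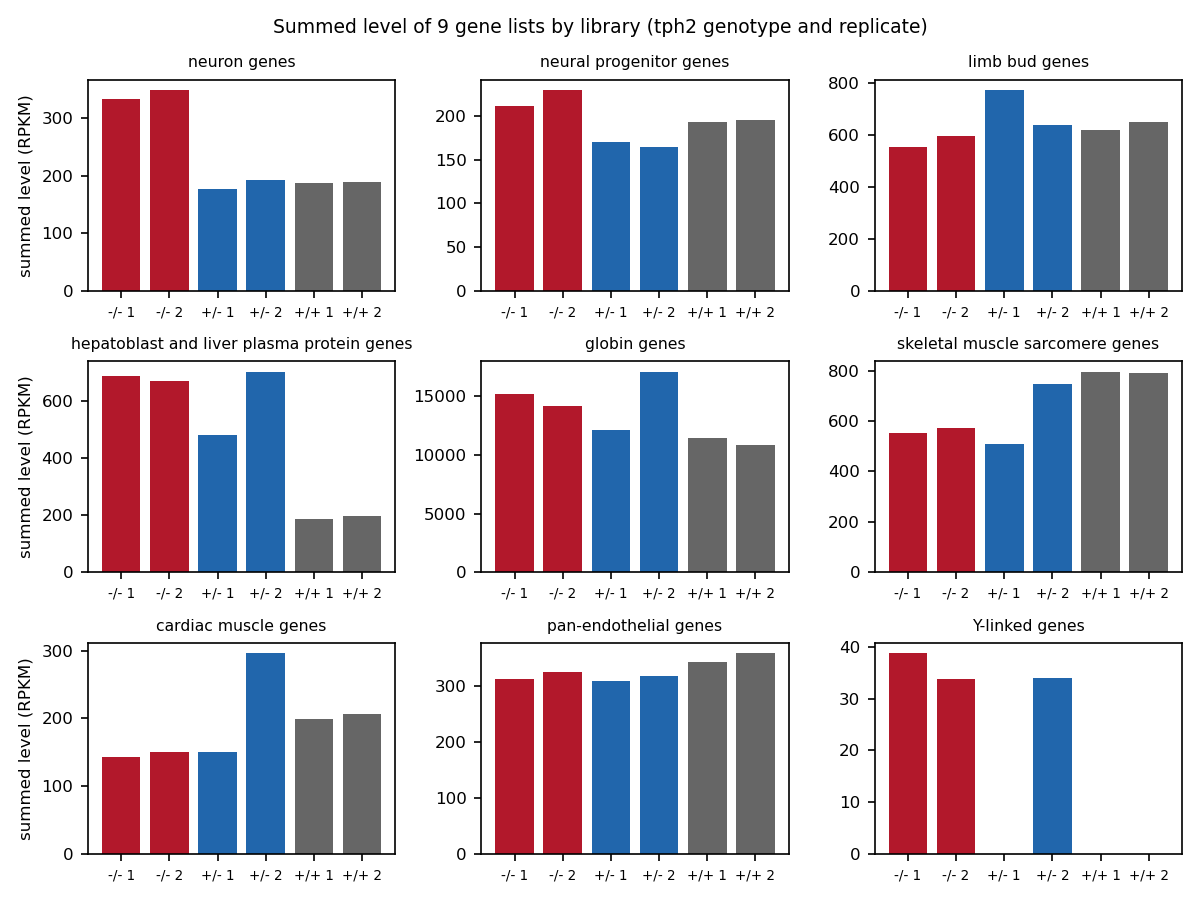
Summed RPKM of 9 gene lists in each library, with 2 bars each for tph2-/-, tph2+/- and tph2+/+. Neuron genes sum to 332.5 and 348.1 RPKM in tph2-/- and to under 200 RPKM elsewhere, cardiac genes stand out at 296.4 RPKM in tph2+/- replicate 2, and Y-linked genes are near 0 in tph2+/- replicate 1.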

How the data were processed

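RNA sequencing libraries from 6 AGM samples were used, 2 per genotype. The deposited table holds RPKM values computed by the authors, with 1 column per library. TopHat2 2.0.9, HTSeq 0.5.3p9 and the build GRCm38 are named in the submitters' processing notes, and the gene models are not given in the sources used here. Per the labels' protocols the kit was TruSeq RNA v2, which does not mark strand, so overlapping genes share reads. Rows of cDNA clones (33353) and dates (27) were left out of 56826. Genes that averaged 1 RPKM or more were fitted as log2(RPKM + 1) with limma 3.58.1 in R 4.3.3 (lmFit, eBayes with trend and robust options) to all 6 libraries in 3 genotype groups, which leaves 3 residual degrees of freedom. Fold changes on this scale understate those of low genes. P-values were Benjamini-Hochberg adjusted over 12869 genes, and an adjusted p under 0.05 was the threshold. The fit was tested on simulated data. Gene positions came from GENCODE for 23063 of 23446 symbols, 1218 through a synonym, and promoters from RefSeq.

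Depth was estimated as the total at which most low genes give whole reads: 65.5% to 68.3% of 394 to 492 genes came within 0.05 reads of a whole number, against 5.19% to 6.03% at the median candidate total. The table does not state depth, and no intervals from counts are given.

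Genes are named by a rule: the 15 largest non-overlapping differences each way among genes past the threshold (predicted models left out), up to 5 members of each list past the threshold each way, and a fixed set of serotonin, blood, tissue, survival and sex genes. Other names were chosen after their values were seen. The 54 lists (1531 entries, 1530 with a row) and the members were chosen with earlier results of these data known, so no list was tested and each is described by counts and a median. Lists that had no gene past the threshold numbered 27.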

Additional observations from a re-analysis of the deposited data

How the results depend on the processing

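The 166 genes past the threshold (96 higher and 70 lower in tph2-/-) stayed within 1.5 times of that count in each direction with a pseudocount of 0.1 (167), quantile normalization (176), only the 4 libraries of both genotypes in the fit (130), no trend or robust option (141), and X and Y genes left out (166). With no filter on low values 174 genes were higher and 65 lower, and with the filter set at 1 RPKM in 2 of the 4 libraries 143 were higher and 93 lower. A term for the mean level of Y-linked genes gave a total of 267, of which 164 were lower, so that 38.6% of calls were higher against 57.8% as reported, and 125 of the 166 genes were kept. Leaving out 1 library gave 57 to 288 calls, of which 34 to 113 were higher and 23 to 178 lower. The lowest totals, 57 and 74, came without tph2-/- replicate 1 and 2, with 53 and 64 genes shared with the 166. In such a fit the lone library is assumed to vary like the other groups. Without tph2+/- replicate 1 there were 288, sharing 132. The causes were not tested. Of 67 named genes past the threshold, 30 kept the call in every setting run on them, 28 lost it in 1 to 7 and 9 in 8 or more (Peg3 in 11, Foxc2 and Nrp2 in 10, Fbln2 in 9, and Hand1, Lmx1b, Meis2, Mt2 and Rarb in 8), and none of the 67 changed sign. Over single libraries left out, the lower limb bud genes numbered 6 to 17, the higher neuron genes 9 to 17, the higher neural progenitor genes 3 to 8 and the lower posterior Hox genes 4 to 5.

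With 2 libraries per genotype, and no label tying the numbers to litters, the replicate numbers were not taken to pair the samples. The differences between replicate 1 and replicate 2 correlated at 0.0727 between tph2-/- and tph2+/- over 12869 genes, at 0.170 between tph2-/- and tph2+/+ and at 0.0330 between tph2+/- and tph2+/+. With a replicate block in the fit 220 genes passed, 110 higher and 110 lower, of which 160 were among the 166. Having 2 libraries per genotype limits every result here.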

Other observations

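Genes of metal binding were among those not yet described. Mt1 and Mt2, metallothionein genes that bind zinc and other metals, measured 132 and 138 RPKM (Mt1) and 124 and 116 RPKM (Mt2) in tph2-/-, against 96.1 and 101 RPKM (Mt1) and 84.0 and 85.7 RPKM (Mt2) in tph2+/-. In tph2+/+ the values were 49.7 and 49.5 RPKM for Mt1 and 44.9 and 36.1 RPKM for Mt2. Both passed in limma, with log2 fold changes of 0.45 (adjusted p = 0.00353) and 0.49 (adjusted p = 0.0441). The Mt1 call was kept in all 15 other settings, and the Mt2 call was lost in 8 of them. The other 5 tested genes of the metallothionein and zinc list did not pass. That makes 2 of 7 past the threshold (28.6%, against 1.29% of all tested genes). Arg1, the arginase that also marks some macrophages and liver cells, measured 5.00 and 4.47 RPKM in tph2-/-, 1.78 and 1.11 RPKM in tph2+/- and 3.53 and 2.75 RPKM in tph2+/+ (1.24, limma adjusted p = 0.00347). It was chosen after its values were seen, and limma called 0 of 20 macrophage genes, with 0 at an unadjusted p under 0.05.

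Mid1, an X-linked ubiquitin ligase gene, measured 17.8 and 18.4 RPKM in tph2-/-, 6.34 and 6.99 RPKM in tph2+/- and 22.9 and 23.7 RPKM in tph2+/+. The first tph2+/- library and both tph2+/+ libraries had a female pattern and the others a male one, and the part of sex in these values was not tested. The log2 fold change was 1.32 ± 0.0636 (limma adjusted p = 2.56e-05). G530011O06Rik, which overlaps Mid1 on the other strand, measured 6.47 and 5.46 RPKM in tph2-/-, 2.16 and 2.50 RPKM in tph2+/- and 4.02 and 4.55 RPKM in tph2+/+, and the reads of the pair cannot be separated without strand. Erdr1, a gene that lies near Mid1 at the end of the sex chromosomes, measured 129.8 and 159.6 RPKM in tph2-/-, 60.1 and 80.8 RPKM in tph2+/- and 115 and 142 RPKM in tph2+/+, but did not pass (1.04, limma adjusted p = 0.152). Of 444 tested X-linked genes 3 were higher (0.676%, against 0.746% of all tested genes) and 0 lower.

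For 31 of the 96 genes higher in tph2-/-, the tph2+/+ mean was nearer to tph2-/- than to tph2+/-, and the following examples were picked after their values were seen. Uncx, a homeobox gene of the posterior somite, measured 10.7 and 12.6 RPKM in tph2-/-, 7.27 and 8.08 RPKM in tph2+/- and 13.4 and 14.2 RPKM in tph2+/+. Tbx1, a T-box gene of pharyngeal and somitic mesoderm, measured 10.6 and 11.0 RPKM in tph2-/-, 7.79 and 6.88 RPKM in tph2+/- and 12.9 and 13.7 RPKM in tph2+/+. Meox1 measured 21.5 and 22.4 RPKM in tph2-/-, 16.7 and 16.7 RPKM in tph2+/- and 32.0 and 30.8 RPKM in tph2+/+.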
